A study of Mus musculus with 12 samples.

Results

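The genes described here are 10 keratins of simple and squamous epithelia: Krt4, Krt5, Krt7, Krt8, Krt13, Krt15, Krt18, Krt19, Krt20 and Krt23. They were taken by gene symbol from a table of 55421 mouse gene rows, each symbol matched 1 row, and all 10 were among the 16152 genes that passed the filter on low counts. Messenger RNA was sequenced from 12 libraries of wild-type mouse gastric organoids, 3-dimensional epithelial cultures grown in a gel from isolated glands of the corpus (the body of the stomach) or the antrum (its outlet). The 4 groups were Wnt-inhibited corpus, vehicle corpus, Wnt-inhibited antrum and vehicle antrum organoids, with 3 lines each, numbered 8025, 8026 and 8028.

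Inhibited organoids received XAV939, which stabilises Axin by inhibiting tankyrase and so dampens Wnt signals (1 mM as labelled, a dose repeated here only as labelled). They also received 100 ng/mL of Noggin-1, an antagonist of BMP ligands, and no added Wnt or R-spondin. Vehicle organoids had DMSO in the normal medium, which holds 50% L-WRN, conditioned medium from cells secreting Wnt, R-spondin and Noggin. Treatment began on day 4 after passage, RNA was taken after 24 h, and all lines were wild type and had been passaged at least 3 times. The compound, the withdrawal and the Noggin were given together and cannot be told apart. Serum was 20% in corpus and 10% in antrum growth medium, so region and serum cannot be told apart either. The lines are called independent, but nothing says whether a number shared between regions marks the same mouse.

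Keratins are the intermediate filament proteins of epithelial cells. A type I keratin (here Krt13, Krt15, Krt18, Krt19, Krt20 and Krt23) pairs with a type II keratin (Krt4, Krt5, Krt7 and Krt8), and only such pairs polymerise into filaments, so the partner chains are usually made together. Krt8 and Krt18 are the founding pair of single-layered epithelia such as the gastric gland lining, where Krt19, Krt7 and Krt20 are added in some cells, Krt20 typically in the most differentiated surface cells. Krt4 and Krt13 are the pair of the suprabasal layers of wet squamous epithelia such as the oesophagus and the mouse forestomach, while Krt5 and Krt15 mark the basal layer of stratified epithelia.

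On GRCm38, in the GENCODE M21 annotation, the type II genes and Krt18 lie on chromosome 15 and the other type I genes on chromosome 11, and all are protein-coding. Krt8 (ENSMUSG00000049382, minus strand, 15:101996698-102004482) and Krt18 (ENSMUSG00000023043, plus strand, 15:102028180-102032027) stand head to head, with 23697 bases between them. Krt20 (ENSMUSG00000035775) lies at 11:99428403-99438150 and Krt23 (ENSMUSG00000006777) at 11:99477974-99493137, both on the minus strand. Krt13 (ENSMUSG00000044041), Krt15 (ENSMUSG00000054146) and Krt19 (ENSMUSG00000020911) are neighbours on the minus strand, from 100117327 to 100148665 on chromosome 11.

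Sequences from the 250 bases before the RefSeq transcription starts (build GRCm38.p6) are printed for 4 members. They are the pair Krt8 and Krt18, Krt20, which had the largest change, and Krt23, the member that fell. Bases that GENCODE places inside the gene were left out of the print. Shown are 110 bases for Krt8, 214 for Krt18, 250 for Krt20 and 233 for Krt23. They run 5′ to 3′ on the gene's strand and end at or up to 3 bases before the start of the GENCODE gene. Capitals mark 2 short motifs on either strand. The first, ATAAAA, is a TATA-like element. The second holds the core letters of sites bound by the aryl hydrocarbon receptor, GCGTG.
Krt8, chr15:102004483-102004592, minus strand: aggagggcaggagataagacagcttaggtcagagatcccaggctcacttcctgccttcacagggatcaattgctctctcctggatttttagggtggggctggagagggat
Krt18, chr15:102027966-102028179, plus strand: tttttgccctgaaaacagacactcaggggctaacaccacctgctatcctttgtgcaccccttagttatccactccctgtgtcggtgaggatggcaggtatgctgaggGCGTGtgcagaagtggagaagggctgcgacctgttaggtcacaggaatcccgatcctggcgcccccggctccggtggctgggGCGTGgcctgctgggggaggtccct
Krt20, chr11:99438154-99438403, minus strand: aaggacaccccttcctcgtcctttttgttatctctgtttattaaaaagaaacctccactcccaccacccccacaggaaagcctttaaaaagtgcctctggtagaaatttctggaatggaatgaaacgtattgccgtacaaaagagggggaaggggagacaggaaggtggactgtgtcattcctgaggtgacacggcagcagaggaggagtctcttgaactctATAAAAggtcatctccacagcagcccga
Krt23, chr11:99493138-99493370, minus strand: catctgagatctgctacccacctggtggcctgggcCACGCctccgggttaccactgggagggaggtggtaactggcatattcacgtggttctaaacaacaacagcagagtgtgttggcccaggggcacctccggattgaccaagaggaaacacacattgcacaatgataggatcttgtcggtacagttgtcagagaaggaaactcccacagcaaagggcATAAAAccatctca

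RefSeq gave a start for 7 of the 10 keratins (8 starts, of which 2 belong to Krt13). Each full 250-base stretch before a start was searched on both strands, including bases not printed above. The DNA-binding partners of beta-catenin, the TCF/LEF factors, recognise the letters CTTTGAT and close variants of them. These letters, the variant CTTTGTT and a further variant ending otherwise, CTTTGAA, were in 0 of the 8 stretches, against 12% of 32851 mouse promoters searched the same way. ATAAAA was in 5 of the 8 stretches, against 17.0% of all promoters. The receptor core letters were in those of Krt18 and Krt23, against 28.2% of promoters. One Krt13 start held the AP-1 letters TGACTCA (searched on both strands), which 4.46% of promoters hold. The Krt7 stretch had 4 copies of the GC box, GGGCGG, which 32.7% of promoters hold. The letters CACCC were in 7 of the 8, against 52.0% of promoters. These are matches of letters, not sites shown to be bound.

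Library totals ranged from 18858022 to 31656696 counts, and levels are given as CPM, counts scaled to a common library total after TMM, edgeR's normalization for library composition. A library with no reads of a gene could still hold 3 counts, or 0.0889 to 0.177 CPM. Ribosomal RNA-like transcripts took 17.2% of antral vehicle line 8025 and 6.87% of antral vehicle line 8028, against 0.839% to 3.45% in the other libraries. On principal component 2, which held 18.6% of the variance, the remaining corpus libraries scored 28.2 to 40.9, but corpus line 8028 scored -25.3 inhibited and 1.8 in vehicle, nearer to antrum. The Wnt target Axin2 averaged 9.28 ± 8.23 CPM in inhibited and 68.8 ± 4.00 CPM in vehicle corpus, and 12.4 ± 1.63 CPM in inhibited and 75.5 ± 4.74 CPM in vehicle antrum (SD, n = 3), and every inhibited library was below every vehicle library. Among other cell types, 10 mesenchymal genes summed to at most 2.54 CPM in any library, and 4 endothelial genes to at most 17.2 CPM. The 7 immune genes summed to at most 52.2 CPM, of which Cd68 reached 50.6 CPM. Of these 7, the macrophage marker Adgre1 was at 0 counts in all 12 libraries and Lyz2 had 2 counts in all.

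After Wnt inhibition 7 of the 10 keratins rose and 1 fell in each region, by edgeR's quasi-likelihood test with Benjamini-Hochberg adjustment over all genes tested. The genes that rose in both regions were Krt4, Krt7, Krt8, Krt13, Krt18, Krt19 and Krt20, the gene that fell was Krt23, and Krt5 and Krt15 did not pass. Among all genes tested 30.9% were called in corpus (15.5% higher and 15.4% lower) and 29.7% in antrum (16.3% higher and 13.4% lower). The median log2 change of the 10 keratins was 0.89 in corpus and 0.84 in antrum, against -0.0374 and -0.0439 over all genes. The 10 genes together held 1.74% ± 0.0603 of all counts in inhibited corpus organoids, against 0.980% ± 0.0614 in vehicle corpus organoids, and 1.79% ± 0.115 in inhibited antrum organoids, against 0.993% ± 0.107 in vehicle antrum organoids (SD, n = 3). In bulk RNA, fewer or more cells of a type and less or more RNA per cell cannot be told apart.

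**Figure D1:**
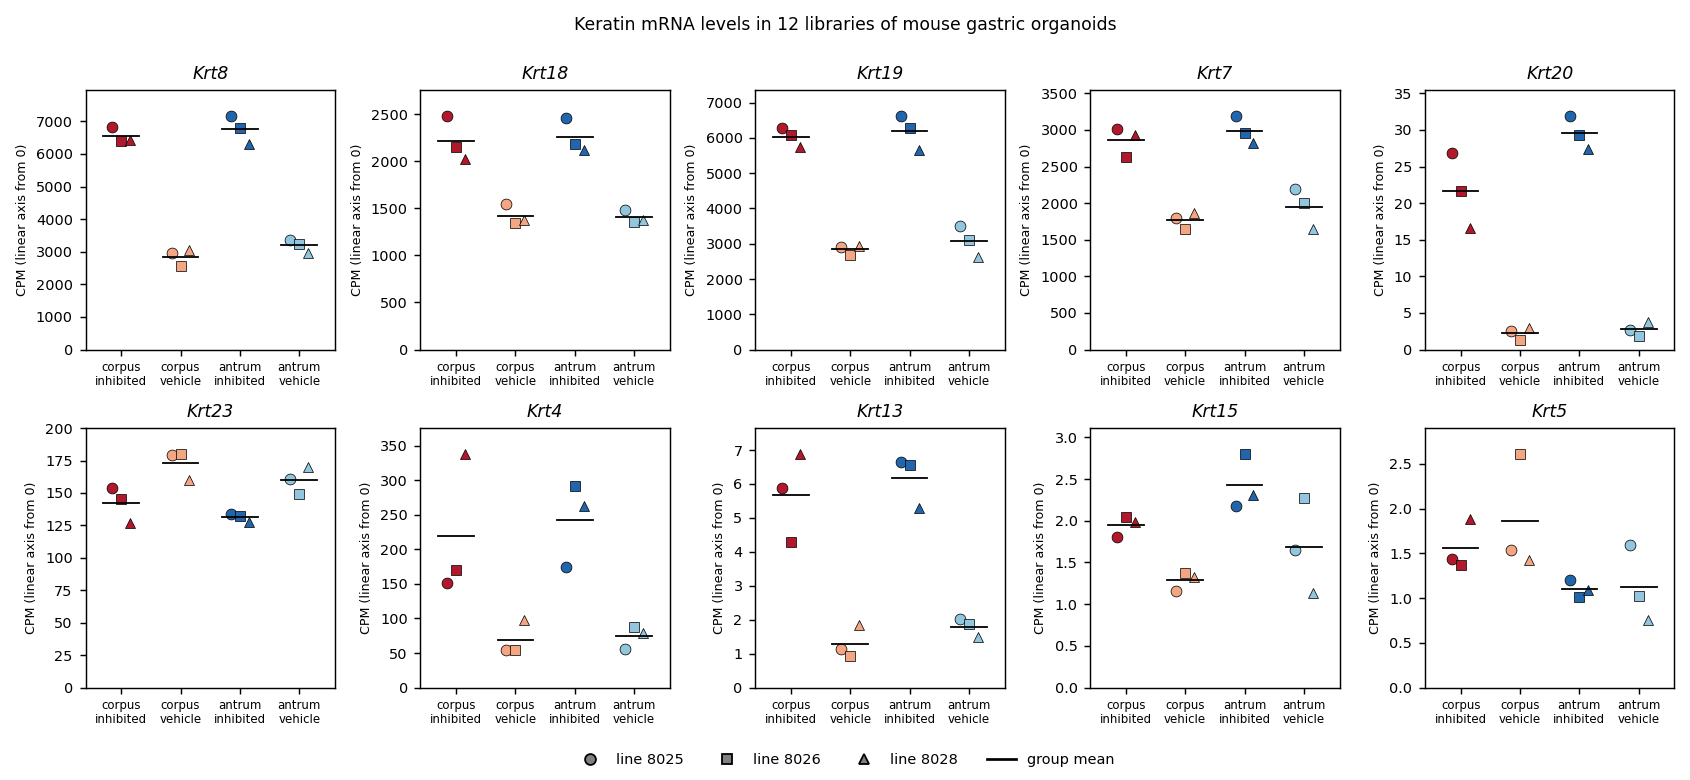
Level of each keratin (CPM, linear axes from 0, one scale per gene) in the 12 libraries, by group; each symbol is a line and each bar the mean of 3 lines. For Krt8, Krt18, Krt19, Krt7, Krt20, Krt4 and Krt13 all inhibited libraries lie above all vehicle libraries of the same region, for Krt23 all lie below, and for Krt5 the groups overlap.

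The most abundant type II keratin, Krt8, had 6810, 6400 and 6440 CPM in inhibited corpus lines 8025, 8026 and 8028, against 2960, 2560 and 3040 CPM in the same vehicle lines. Antral organoids had 7160, 6790 and 6300 CPM in inhibited lines, against 3370, 3250 and 2960 CPM in vehicle lines. Every inhibited library was above every vehicle library of its region. The log2 change was 1.20 ± 0.0845 (SE) in corpus, a 2.3-fold rise with an edgeR adjusted p of 3.98e-06, and 1.08 ± 0.0845 in antrum, a 2.11-fold rise with an adjusted p of 6.08e-06. Within lines the inhibited to vehicle ratio was 2.3, 2.5 and 2.12 in corpus and 2.12, 2.09 and 2.13 in antrum. The row of the pseudogene Krt8-ps held 76 to 293 counts per library, and reads that fit both rows are uncertain.

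Krt18, its type I partner, had 2480, 2150 and 2020 CPM in inhibited corpus lines, against 1550, 1340 and 1380 CPM in vehicle corpus lines. In antrum it had 2460, 2180 and 2120 CPM in inhibited lines, against 1480, 1360 and 1380 CPM in vehicle lines. The groups did not overlap in either region, and the fitted change was below that of Krt8, at a log2 change of 0.64 ± 0.0925 in corpus (1.56-fold, edgeR adjusted p 0.000375) and 0.68 ± 0.0925 in antrum (1.60-fold, adjusted p 0.000250).

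Krt19, the small type I keratin of ducts, glands and other simple epithelia, had a change close to that of Krt8. It had 6270, 6090 and 5750 CPM in inhibited corpus lines, against 2900, 2680 and 2940 CPM in vehicle corpus lines. Antral organoids had 6620, 6280 and 5650 CPM in inhibited lines, against 3490, 3120 and 2620 CPM in vehicle lines. All inhibited libraries were above all vehicle ones, and the log2 change was 1.09 ± 0.102 in corpus (2.13-fold, edgeR adjusted p 2.2e-05) and 1.01 ± 0.102 in antrum (2.01-fold, adjusted p 3.43e-05). Krt7, a type II keratin of ducts and glands, had 3020, 2630 and 2930 CPM in inhibited corpus lines, against 1800, 1650 and 1870 CPM in vehicle corpus lines. In antrum it had 3190, 2960 and 2820 CPM in inhibited lines, against 2200, 2000 and 1650 CPM in vehicle lines. Krt7 thus separated by treatment in every library, with a log2 change of 0.69 ± 0.105 in corpus (1.61-fold, edgeR adjusted p 0.000524) and 0.62 ± 0.105 in antrum (1.53-fold, adjusted p 0.00111). An antisense transcript, Gm671, overlaps Krt7 and held 11 to 37 counts per library; whether counting used strand is not given in the sources used here.

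Krt20, the type I keratin known from intestinal villus and gastric surface cells, had the largest fold change of the 10. It had 26.8, 21.7 and 16.6 CPM in inhibited corpus lines, against 2.55, 1.37 and 2.96 CPM in vehicle corpus lines. Antral organoids had 31.9, 29.3 and 27.4 CPM in inhibited lines, against 2.65, 1.85 and 3.76 CPM in vehicle lines. The lowest inhibited library, corpus line 8028, was still above the highest vehicle library. The log2 change was 3.24 ± 0.285 in corpus (9.44-fold, 95% interval 6.12 to 14.6, edgeR adjusted p 1.86e-05) and 3.43 ± 0.289 in antrum (10.8-fold, 6.97 to 16.8, adjusted p 1.29e-05). Within lines the ratio was 10.5, 15.8 and 5.61 in corpus and 12, 15.9 and 7.30 in antrum, so line 8026 had the highest ratio and line 8028 the lowest in both regions. Per kilobase Krt20 remained a minor keratin after inhibition, at 0.116% ± 0.0227 of the 10 keratins' level in corpus and 0.155% ± 0.00211 in antrum, against 0.0244% ± 0.00771 in vehicle corpus and 0.0282% ± 0.0121 in vehicle antrum.

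Krt23, a type I keratin of simple epithelia whose partner and role are less well described, went the other way. It had 154, 145 and 127 CPM in inhibited corpus lines, against 179, 180 and 160 CPM in vehicle corpus lines. In antrum it had 134, 132 and 128 CPM in inhibited lines, against 161, 149 and 170 CPM in vehicle lines. The groups did not overlap, and the log2 change was -0.29 ± 0.0793 in corpus (edgeR adjusted p 0.0179) and -0.29 ± 0.0794 in antrum (adjusted p 0.0189). The call is fragile: it was lost in 7 of 19 alternatives in each region, most of them with a library or line left out, with the log2 change between -0.44 and -0.18 in corpus and between -0.35 and -0.18 in antrum and adjusted p up to 0.242 and 0.306.

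Krt4 and Krt13, the suprabasal squamous pair, both rose, at very different levels. Krt4 had 151, 170 and 338 CPM in inhibited corpus lines, against 54.6, 54.3 and 97.5 CPM in vehicle corpus lines. Antral organoids had 174, 292 and 263 CPM in inhibited lines, against 55.8, 88.3 and 79.2 CPM in vehicle lines. Corpus line 8028 was high under both treatments and antral line 8025 low under both, while the ratio within a line varied less, at 2.77, 3.13 and 3.47 in corpus and 3.13, 3.31 and 3.32 in antrum. The log2 change was 1.68 ± 0.335 in corpus (3.20-fold, edgeR adjusted p 0.00350) and 1.70 ± 0.336 in antrum (3.26-fold, adjusted p 0.00327). Without line 8026 the adjusted p was 0.0527 in corpus and 0.0517 in antrum, and without antral vehicle lines 8025 and 8028 it was 0.0981 in antrum (log2 1.46), where the 1 vehicle library left is assumed to vary like the other groups.

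Krt13 had 5.89, 4.28 and 6.88 CPM in inhibited corpus lines, against 1.13, 0.925 and 1.83 CPM in vehicle corpus lines. In antrum it had 6.65, 6.57 and 5.28 CPM in inhibited lines, against 2.01, 1.88 and 1.50 CPM in vehicle lines. Its inhibited libraries were all above its vehicle libraries, with a log2 change of 2.14 ± 0.259 in corpus (4.40-fold, edgeR adjusted p 0.000124) and 1.78 ± 0.258 in antrum (3.44-fold, adjusted p 0.000408). These levels rest on few reads: 426 counts over the 3 inhibited and 122 over the 3 vehicle corpus libraries, and 500 and 127 in inhibited and vehicle antrum. Per kilobase Krt4 exceeded its usual partner Krt13 in every group, at 103 ± 48.2 against 3.44 ± 0.794 CPM per kilobase in inhibited corpus organoids.

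The basal-layer keratins were low, at 0.751 to 2.80 CPM in every library. Krt15 had 1.81, 2.05 and 1.99 CPM in inhibited corpus lines, against 1.16, 1.37 and 1.33 CPM in vehicle corpus lines, and 2.18, 2.80 and 2.31 CPM in inhibited antral lines, against 1.65, 2.27 and 1.13 CPM in vehicle antral lines. Its values were higher in all 3 inhibited lines of each region, and the groups overlapped in antrum only through vehicle line 8026. The log2 difference was 0.60 ± 0.240 in corpus (95% interval 0.08 to 1.13, edgeR adjusted p 0.0790) and 0.52 ± 0.238 in antrum (-0.01 to 1.04, adjusted p 0.124). With a replicate block on the line it passed in corpus (adjusted p 0.0418), and without antral vehicle line 8026 it passed in antrum (log2 0.85, adjusted p 0.0235).

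Krt5 had 1.44, 1.37 and 1.88 CPM in inhibited corpus lines, against 1.54, 2.61 and 1.43 CPM in vehicle corpus lines, and 1.20, 1.01 and 1.09 CPM in inhibited antral lines, against 1.59, 1.02 and 0.751 CPM in vehicle antral lines. Inhibited and vehicle libraries overlapped in both regions. The log2 difference was -0.25 (95% interval -0.90 to 0.41, edgeR adjusted p 0.567) in corpus and 0.00 (-0.70 to 0.71, adjusted p 0.999) in antrum, so a change of up to 1.63-fold in antrum lies within the interval. Its usual type I partner Krt14 was likewise low and not called in the fit of all 12 libraries without a block. Krt14 averaged 4.13 ± 3.44 CPM in inhibited and 2.65 ± 1.72 CPM in vehicle corpus, and 2.81 ± 0.441 CPM in inhibited and 1.46 ± 0.234 CPM in vehicle antrum. In antrum it was called, without a block, in the fit of the compared libraries alone and without line 8028. With the replicate block Krt14 rose in both regions (edgeR adjusted p 0.0298 in corpus and 0.00363 in antrum).

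**Figure D2:**
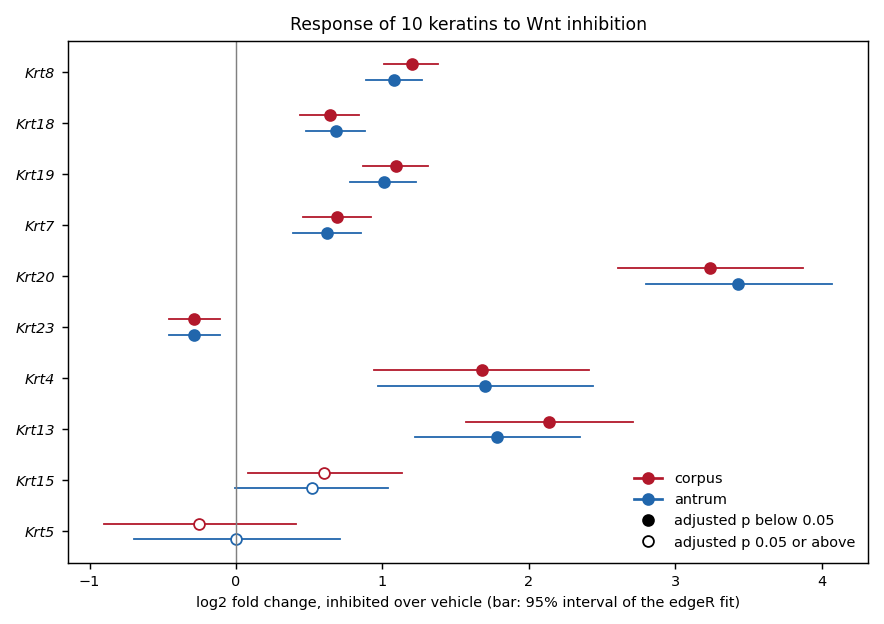
Log2 fold change of each keratin, inhibited over vehicle, in corpus and antrum, with the 95% interval of the edgeR fit; filled points have an adjusted p below 0.05. Krt20 has the largest change (3.24 in corpus and 3.43 in antrum), Krt23 lies below 0 in both regions, and the intervals of the 2 regions overlap for each gene.

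Levels of different genes were compared per kilobase of exon of the single coding transcript that GENCODE annotates for each. Krt19 was the most abundant, at 3830 ± 165 CPM per kilobase in inhibited and 1800 ± 86.9 in vehicle corpus, and 3920 ± 312 in inhibited and 1950 ± 279 in vehicle antrum. Krt8 came next, at 3350 ± 115 and 1460 ± 131 CPM per kilobase in inhibited and vehicle corpus, and 3450 ± 221 and 1630 ± 109 in inhibited and vehicle antrum. The libraries of Krt19 and Krt8 did not overlap in either corpus group but did in both antrum groups. Krt18 was below Krt8 in every library, at 1540 ± 165 and 990 ± 77.8 CPM per kilobase in inhibited and vehicle corpus.

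The place of Krt7 depends on the length used. Its annotated transcript has 4094 bases, of which 1374 are coding, while the exon length of the other 9 genes runs between 1437 and 2197 bases. Per kilobase of exon Krt7 had 698 ± 50 CPM in inhibited and 433 ± 27.5 CPM in vehicle corpus, below Krt18. Per kilobase of coding sequence, an alternative added after seeing the data, it had 2080 ± 149 and 1290 ± 81.8 CPM, against 1740 ± 187 and 1120 ± 87.9 CPM for Krt18. Which part of the transcript the reads cover was not tested.

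Among the less abundant members, the means of Krt4 and Krt23 changed places, but not the values of every line. In vehicle organoids Krt23 was above Krt4 in every library, at 102 to 115 against 25.4 to 45.7 CPM per kilobase in corpus and 95 to 108 against 26.2 to 41.4 in antrum. In inhibited organoids the mean of Krt4 was the higher, at 103 ± 48.2 against 90.7 ± 8.75 CPM per kilobase in corpus and 114 ± 28.8 against 83.8 ± 2.00 in antrum, although the libraries of these 2 genes overlapped. In vehicle corpus Krt20, Krt5, Krt13 and Krt15 lay together, at 1.19, 0.848, 0.782 and 0.757 CPM per kilobase with overlapping libraries. In inhibited corpus they were spread out, at 11.3 for Krt20, 3.44 for Krt13, 1.15 for Krt15 and 0.712 for Krt5, with no overlap between neighbours.

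The rise was uneven within the pool. Per kilobase the 10 keratins summed to 9630 ± 416 CPM in inhibited and 4830 ± 292 CPM in vehicle corpus, and to 9880 ± 657 CPM in inhibited and 5180 ± 481 CPM in vehicle antrum. Krt8 took 34.8% ± 0.480 of that sum in inhibited and 30.2% ± 1.00 in vehicle corpus, and Krt18 took 16.0% ± 1.01 in inhibited and 20.5% ± 1.16 in vehicle corpus. In antrum Krt8 took 34.9% ± 0.148 in inhibited and 31.6% ± 0.904 in vehicle organoids, and Krt18 took 15.9% ± 0.495 in inhibited and 19.0% ± 1.33 in vehicle organoids. The share of Krt23 was 0.941% ± 0.0599 in inhibited and 2.3% ± 0.255 in vehicle corpus.

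The ratio of Krt8 to Krt18 per kilobase, which no scaling between libraries can change, was 2.01, 2.19 and 2.34 in inhibited corpus lines, against 1.40, 1.40 and 1.62 in vehicle corpus lines. In antrum it was 2.14, 2.28 and 2.18 in inhibited lines, against 1.67, 1.76 and 1.57 in vehicle lines. All inhibited libraries were above all vehicle libraries in both regions, with an exact two-sided permutation p of 0.1 in each, the smallest that 3 against 3 allows. The ratio of Krt19 to Krt18, both type I, averaged 2.49 ± 0.168 in inhibited and 1.82 ± 0.120 in vehicle corpus, and 2.50 ± 0.102 in inhibited and 1.99 ± 0.231 in vehicle antrum. All type II over all type I members per kilobase gave 0.758 ± 0.0434 in inhibited and 0.662 ± 0.0359 in vehicle corpus, and 0.768 ± 0.0154 in inhibited and 0.708 ± 0.0222 in vehicle antrum. The groups did not overlap in that ratio (exact permutation p 0.1 in each region), but with coding lengths they did, at 0.974 ± 0.0584 and 0.909 ± 0.0447 in inhibited and vehicle corpus and 0.989 ± 0.0210 and 0.965 ± 0.0245 in inhibited and vehicle antrum (exact permutation p 0.3 in each, lines not paired). Within lines the ratio with coding lengths was higher after inhibition in 3 of 3 corpus lines and 2 of 3 antral lines.

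**Figure D3:**
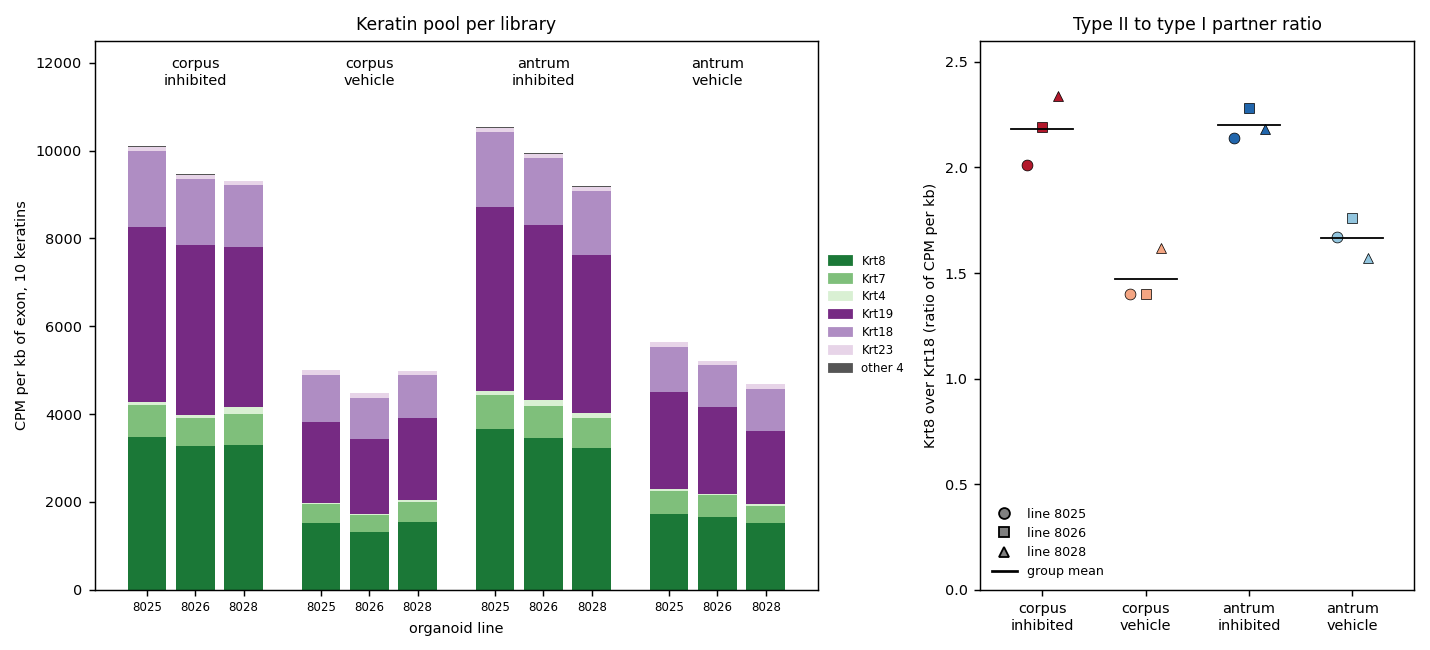
Left, level of the 10 keratins per kilobase of exon (CPM per kb, stacked; type II in green, type I in purple, and Krt5, Krt13, Krt15 and Krt20 together in grey) in each library; right, ratio of Krt8 to Krt18 per kilobase by group, with the mean of 3 lines as a bar. The stacks average 9630 in inhibited and 4830 in vehicle corpus, and the ratio lies between 2.01 and 2.34 in inhibited and between 1.40 and 1.76 in vehicle libraries of both regions.

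Antrum was then set against corpus, to ask whether the keratins differed by region. None of the 10 keratins was called in vehicle organoids or in inhibited ones by edgeR's quasi-likelihood test with Benjamini-Hochberg adjustment, where 0.198% and 0.0619% of all genes were called; by DESeq2 and limma-voom the count was also 0. At an unadjusted p under 0.05 the count was 1 in vehicle organoids, which was Krt5, and 0 in inhibited organoids. Krt5 averaged 1.12 ± 0.429 CPM in vehicle antrum and 1.86 ± 0.654 CPM in vehicle corpus (log2 -0.76, 95% interval -1.44 to -0.08, adjusted p 0.276), and 1.10 ± 0.0950 CPM in inhibited antrum and 1.56 ± 0.277 CPM in inhibited corpus, where the groups did not overlap. Krt20 averaged 29.6 ± 2.27 CPM in inhibited antrum and 21.7 ± 5.10 CPM in inhibited corpus (log2 0.45, 95% interval -0.12 to 1.01, edgeR adjusted p 0.604), again without overlap. Krt15 did not overlap either, at 2.43 ± 0.325 CPM in inhibited antrum and 1.95 ± 0.126 CPM in inhibited corpus (log2 0.31, 95% interval -0.20 to 0.83, edgeR adjusted p 0.678). The share of all genes without overlap is not given here.

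For the abundant members the intervals between regions were narrow. In inhibited organoids antrum over corpus was 1.03-fold for Krt8 (95% interval 0.906 to 1.17), 1.02-fold for Krt18 (0.883 to 1.17), 1.02-fold for Krt19 (0.877 to 1.20) and 1.05-fold for Krt7 (0.892 to 1.23). In vehicle organoids antrum over corpus was 1.12-fold for Krt8 (0.984 to 1.27) and 0.988-fold for Krt18 (0.858 to 1.14). For Krt4 the interval was wider, at 1.11-fold (0.667 to 1.84) in inhibited organoids. Both corpus libraries of line 8028 lay towards antrum overall; without them none of the 10 members was called in either comparison of regions, while the number of all genes called was 1080 in vehicle and 2386 in inhibited organoids, against 32 and 10 with them. Of the other keratins, Krt1 and Krt79 were then called lower in inhibited antrum than in inhibited corpus (edgeR adjusted p 0.0387 and 0.0291).

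Whether the response to inhibition differed between regions was tested as an interaction in the same fit. None of the 10 keratins was called by edgeR's quasi-likelihood test with Benjamini-Hochberg adjustment (adjusted p 1 for each), by DESeq2 or by limma-voom, and 0 had an unadjusted p under 0.05; over all genes 0.00619% were called. The log2 difference of the responses, antrum minus corpus, was -0.12 for Krt8 (95% interval -0.38 to 0.14), 0.04 for Krt18 (-0.25 to 0.33), -0.08 for Krt19 (-0.40 to 0.24) and -0.07 for Krt7 (-0.40 to 0.25). It was 0.20 for Krt20 (-0.70 to 1.09), -0.35 for Krt13 (-1.16 to 0.45) and 0.03 for Krt4 (-1.01 to 1.07). On the linear scale the 95% interval of the antral over the corpus response ran from 0.617 to 2.12 for Krt20, from 0.448 to 1.36 for Krt13 and from 0.495 to 2.10 for Krt4.

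The remaining 44 keratin genes of the table were mostly silent: 13 passed the low-count filter. Inhibition raised 5 of the 13 and lowered 0 in corpus, and raised 6 and lowered 0 in antrum (edgeR's quasi-likelihood test with Benjamini-Hochberg adjustment). Over all genes tested 15.5% were higher and 15.4% lower in corpus, and 16.3% higher and 13.4% lower in antrum. The 13 had median log2 changes of 0.72 in corpus and 0.87 in antrum. Some rows passed the low-count filter mainly through the inhibited groups. Krt36 had 0.453 to 0.977 CPM in inhibited libraries and at most 0.296 CPM in vehicle ones. Krt84 had at least 0.313 CPM in inhibited libraries and at most 0.167 CPM in vehicle antrum. Such rows could hardly be called lower, so the counts and medians of the 13 lean towards a rise. At an unadjusted p under 0.05, 0 were lower in corpus and 1, Krt90, in antrum, where DESeq2 also called 1 lower. Krt79, a type II keratin known from hair follicle canals and sebaceous ducts, averaged 39.6 ± 10.6 CPM in inhibited and 6.19 ± 0.545 CPM in vehicle corpus (log2 2.68 ± 0.221, adjusted p 1.30e-05), and 28.7 ± 6.39 CPM in inhibited and 4.97 ± 0.978 CPM in vehicle antrum (log2 2.54 ± 0.230, adjusted p 2.06e-05). Its groups did not overlap in either region.

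Krt80, a type II keratin found at desmosomes of many epithelia, averaged 43.3 ± 2.71 CPM in inhibited and 20.7 ± 4.92 CPM in vehicle corpus, and 40.9 ± 4.73 CPM in inhibited and 22.4 ± 3.41 CPM in vehicle antrum. Krt78, a type II keratin of stratified epithelia, averaged 5.88 ± 1.40 CPM in inhibited and 1.58 ± 0.291 CPM in vehicle corpus, and 4.84 ± 0.534 CPM in inhibited and 1.64 ± 0.241 CPM in vehicle antrum. Both rose in each region. The other calls were on rows under 2 CPM, except Krt10, a suprabasal skin keratin, which rose in antrum at 3.41 ± 0.378 CPM in inhibited and 2.26 ± 0.381 CPM in vehicle organoids (adjusted p 0.0263, lost in 10 of 19 alternatives): the hair keratins Krt33a and Krt84 in corpus, and Krt36 and Krt84 in antrum. Krt10 and Krt36 in corpus, Krt33a in antrum, and Krt1, Krt6a, Krt14, Krt16, Krt87 and Krt90 in both regions were not called. With total-count scaling 3 of the 13 were called in corpus, and with the replicate block 7 rose and 2 fell in each region. The rows the block added were Krt14, which rose, and Krt87 and Krt90, which fell, in both regions, and Krt10, which rose, in corpus. The corpus calls of Krt33a and Krt84 were lost in 11 of 19 and 12 of 18 alternatives, and 3 of the 13 were called in corpus without line 8025, without line 8026, without either corpus library of line 8026 alone or without the vehicle corpus library of line 8028.

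Genes for proteins that bind keratin filaments were counted next. Of 19 measured genes for desmosomes, hemidesmosomes and linker proteins (21 listed), 13 rose and 0 fell in each region by edgeR's quasi-likelihood test with Benjamini-Hochberg adjustment. Among all genes tested 15.5% were called higher and 15.4% lower in corpus, and 16.3% higher and 13.4% lower in antrum. Of the 19, 0 were lower at an unadjusted p under 0.05, and DESeq2 and limma-voom also called 0 lower. Their median log2 change was 0.39 in corpus and 0.51 in antrum. The plakins periplakin (Ppl) and envoplakin (Evpl), which tie keratins to desmosomes and the cell envelope, rose by 0.74 ± 0.0552 and 0.72 ± 0.0798 log2 in corpus and by 0.71 ± 0.0553 and 0.88 ± 0.0803 in antrum. Fam83h, which recruits casein kinase to keratin filaments, averaged 154 ± 5.91 CPM in inhibited and 89.9 ± 8.25 CPM in vehicle corpus, and 165 ± 1.98 CPM in inhibited and 98.8 ± 0.711 CPM in vehicle antrum.

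Plectin (Plec), a large cytolinker, averaged 340 ± 36.1 CPM in inhibited and 186 ± 24.2 CPM in vehicle corpus. Perp, a desmosomal membrane protein, averaged 205 ± 8.45 CPM in inhibited and 125 ± 5.84 CPM in vehicle antrum. Among Ppl, Fam83h, Evpl and Plec the edgeR adjusted p in corpus was between 5.01e-06 for Ppl and 0.000121 for Plec. Among Ppl, Perp, Fam83h and Evpl it was between 5.72e-06 for Ppl and 1.75e-05 for Evpl in antrum. With total-count scaling 8 of the 19 rose in corpus, and without line 8026 8 rose in antrum.

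Among other intermediate filament genes, of 11 measured, corpus had 2 that rose and 1 that fell, antrum had 2 and 3 (edgeR's quasi-likelihood test with Benjamini-Hochberg adjustment), with median log2 changes of -0.11 and -0.10. Called were 3 of 11 in corpus and 5 of 11 in antrum, against 30.9% and 29.7% of all genes, and at most 1 was called in each region without line 8025 or without line 8026. Those that rose in both regions, named after their values were seen, were Lmna, the nuclear A-type lamin (log2 0.50 ± 0.105 in corpus and 0.43 ± 0.105 in antrum), and Bfsp1, a lens filament protein, at under 4 CPM. Synm fell in both regions and Nes and Vim in antrum, all at under 5 CPM. Bfsp1 lost its call in 11 of 19 alternatives in corpus and 8 in antrum, and in antrum Synm lost it in 9 and Nes in 10; with the replicate block Synm, Nes and Lmnb1, a B-type lamin, fell in corpus.

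**Figure D4:**
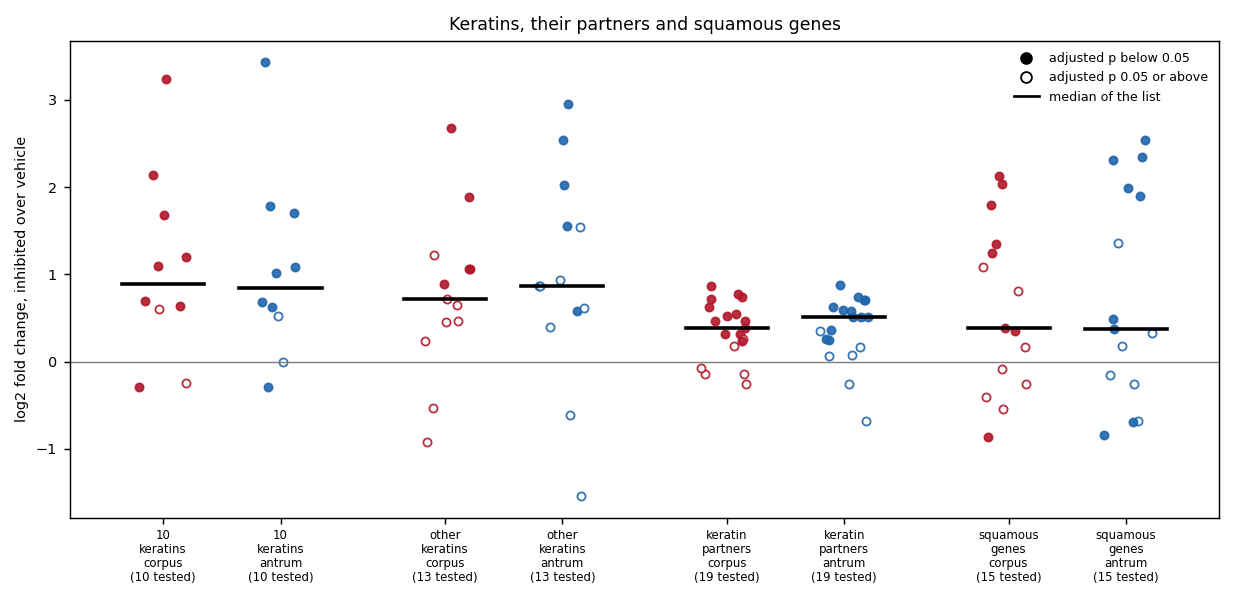
Log2 fold change, inhibited over vehicle, of the 10 keratins, the 13 other measured keratins, 19 keratin partners and 15 squamous genes in corpus and antrum; filled points have an adjusted p below 0.05 and bars are medians. Medians are 0.89 and 0.84 for the 10 keratins, 0.72 and 0.87 for other keratins, 0.39 and 0.51 for partners and 0.39 and 0.37 for squamous genes, in corpus and antrum in that order.

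Genes of squamous differentiation were counted beside Krt4 and Krt13, because the forestomach next to the corpus is squamous. Of 15 measured (23 in the table), corpus had 7 that rose and 1 that fell, and antrum had 7 and 2, by edgeR's quasi-likelihood test with Benjamini-Hochberg adjustment. The same test called 15.5% of all genes higher and 15.4% lower in corpus, and 16.3% higher and 13.4% lower in antrum. The summed level of the list was 704 to 1500 CPM in inhibited and 370 to 515 CPM in vehicle corpus libraries, and 1030 to 1320 CPM in inhibited and 386 to 493 CPM in vehicle antrum libraries. By group means, most of the sum in inhibited organoids came from Sprr1a and Fabp5. Sprr1a, a cornified envelope protein also induced in injured epithelia, averaged 524 ± 246 CPM in inhibited and 120 ± 32.1 CPM in vehicle corpus, and 491 ± 121 CPM in inhibited and 96.3 ± 43.3 CPM in vehicle antrum. Fabp5, a fatty acid binding protein of epidermis and other tissues, averaged 270 ± 94.0 CPM in inhibited and 65.4 ± 14.5 CPM in vehicle corpus, and 307 ± 21.9 CPM in inhibited and 82.3 ± 4.06 CPM in vehicle antrum.

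Involucrin (Ivl) averaged 16.4 ± 2.95 CPM in inhibited and 4.73 ± 2.11 CPM in vehicle corpus, and 19.3 ± 6.70 CPM in inhibited and 3.36 ± 0.991 CPM in vehicle antrum. Repetin (Rptn), another envelope precursor, averaged 8.11 ± 0.845 CPM in inhibited and 3.40 ± 0.608 CPM in vehicle corpus, and 8.66 ± 1.73 CPM in inhibited and 2.20 ± 0.656 CPM in vehicle antrum. The genes that fell, named after their values were seen, were Tgm1, the keratinocyte transglutaminase, in both regions (log2 -0.86 ± 0.232 in corpus and -0.84 ± 0.227 in antrum) and Lor, loricrin, in antrum (-0.69 ± 0.194). The 8 genes of the list that did not pass the low-count filter were Trp63, the master regulator of stratified epithelia, with 22 counts over all 12 libraries, Sprr3, Tgm3, Dsc3 and Calml3 with 3 to 9 counts, and Sprr1b, Krtdap and Dsg1a with 0. Others of the list were well above 0, and Ly6d, a surface protein of squamous cells, averaged 130 ± 64.7 CPM in inhibited and 51.1 ± 13.6 CPM in vehicle corpus, and 71.9 ± 15.9 CPM in inhibited and 14.5 ± 6.83 CPM in vehicle antrum, a rise in both regions. Serpinb5, an epithelial serpin, also rose in both, at 44.9 to 71.0 CPM over all libraries, while the transcription factors Sox2 and Pax9, at 13.9 to 25.3 and 11.5 to 22.8 CPM, were not called in either. Without line 8026, 3 of the 15 rose in corpus and 4 in antrum and 0 fell, and without line 8025, 5 rose and 0 fell in corpus. The part of squamous cells in the rise of Krt4 and Krt13 was not tested.

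Of 14 measured genes of simple epithelium, corpus had 8 that rose and 2 that fell and antrum had 8 and 1 by edgeR's quasi-likelihood test with Benjamini-Hochberg adjustment, against 15.5% of all genes higher and 15.4% lower in corpus and 16.3% higher and 13.4% lower in antrum. Without line 8025 or without line 8026, 5 rose and 1 fell in each region. In corpus their summed level was 8140 to 8490 CPM in inhibited and 5700 to 5920 CPM in vehicle corpus libraries. Lgals4, a galectin of gut epithelium, named with the next 2 after their values were seen, averaged 1810 ± 153 CPM in inhibited and 537 ± 143 CPM in vehicle corpus, and 2230 ± 88.1 CPM in inhibited and 703 ± 85.2 CPM in vehicle antrum. Cldn4, a tight junction protein, fell to 172 ± 17.3 CPM in inhibited corpus, against 335 ± 48.4 CPM in vehicle corpus, and to 225 ± 8.52 CPM in inhibited antrum, against 423 ± 43.7 CPM in vehicle antrum. Epcam, the general epithelial marker, averaged 379 ± 92.8 CPM in inhibited and 525 ± 15.6 CPM in vehicle corpus, where it fell (edgeR adjusted p 0.0160), and 466 ± 14.4 CPM in inhibited and 575 ± 7.88 CPM in vehicle antrum, where it was not called (adjusted p 0.0965, or 0.0300 with the replicate block). The corpus call of Epcam was lost in 6 of 19 alternatives.

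Of the lists of other cell types, only the mesenchymal one was low throughout. The 10 mesenchymal genes summed to 0.942 to 1.54 CPM in inhibited and 1.03 to 1.90 CPM in vehicle corpus libraries, and to 0.469 to 0.739 CPM in inhibited and 1.45 to 2.54 CPM in vehicle antrum libraries, where the 2 that could be tested, Vim and Col1a1, fell. The 7 immune genes summed to 16.0 to 52.2 CPM in inhibited and 29.1 to 39.2 CPM in vehicle corpus libraries, nearly all from Cd68, a lysosomal gene that is not confined to macrophages, and to 18.2 to 28.4 CPM in inhibited and 10.2 to 28.2 CPM in vehicle antrum libraries. The 4 endothelial genes summed to at most 17.2 CPM in any library, mostly from Tek. Ptprc rose in antrum (edgeR adjusted p 0.0493) and Pecam1 in corpus (adjusted p 0.0496), both at under 1 CPM. At these levels the parts of such cells in the keratin changes were not tested.

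Likeness across the 12 libraries is a description only, since the libraries fall into 2 clusters by treatment. Krt5 followed no other member (Pearson r -0.264 to 0.275), and Krt23 ran opposite to the 7 members that rose (r -0.933 with Krt4 to -0.715 with Krt18). The genes whose log2 CPM was most like that of Krt8 were L1cam, Vasp and Krt19 (Pearson r 0.995, 0.994 and 0.994 over 12 libraries), and for Krt20 they were Shoc2, Cib1 and Psd4 (0.994, 0.993 and 0.992). For Krt7 they were Actb, Emp1 and Entr1 (0.993, 0.989 and 0.986), for Krt18 1110008P14Rik, Acp5 and Capn1 (0.991, 0.991 and 0.990) and for Krt19 Krt8, S100a6 and Exoc3l4 (0.994, 0.993 and 0.992). Krt4 was most like Crnn, which encodes cornulin, an oesophageal squamous protein (r 0.992), then Azin1 and Apmap (0.981 and 0.980), and Krt13 was most like Tnfrsf1b and Degs2 (0.994 and 0.990). Krt23, Krt15 and Krt5 had their closest genes in Adam8 (0.979), Taf15 (0.933) and Pcdhga4 (0.874).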

How the data were processed

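Per the file headers, the authors deposited expected counts for each gene, which were whole numbers already. PolyA RNA was selected, per the labels' protocols. Tools named in the submitters' processing notes are STAR 2.7.8a, RSEM 1.3.3, cutadapt 2.3 and FastQC 0.11.8, with the GRCm38 build. Not given in the sources used here: what each tool did, which annotation was used and whether counting used strand. After 5 transgene rows with 2 counts in all were left out, counts were fitted with edgeR 4.0.16 in R 4.3.3 (TMM scaling, filterByExpr by group, robust quasi-likelihood fit of all 12 libraries, 8 residual degrees of freedom), with two-sided tests and Benjamini-Hochberg adjustment over 16152 genes at 0.05. Standard errors and 95% intervals are from the fitted means. Levels per kilobase use GENCODE M21 lengths. Library totals were 18858022 to 31656696 counts; limits from counts of 3 cover counting error only.

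The keratins, the gene lists and the rules were chosen with earlier results of these data known. All 10 keratins are named, with other keratins that passed the filter, up to 4 partner and squamous genes per comparison with the smallest adjusted p, and the 3 genes most like each member by Pearson r of log2 CPM (prior count 2; for Krt5, Krt15 and Krt23 only the first is printed, and 1 gene for Krt13 is not reported here). The same lines had both treatments, so line numbers pair the libraries of a region; the 6 pairs' deviations from group means had correlations of 0.157 to 0.544. Same-numbered libraries of different regions had correlations of -0.104 to 0.277 and are not treated as pairs in the fit of all 12 libraries. The replicate block does treat them as pairs in the comparisons between regions. The p-values measure the spread between lines. Replicates differed by more than sampling noise in every group (chi-square of 10 or more per degree of freedom). Results were recomputed with other scalings (RLE, upper quartile, total counts), other low-count filters, DESeq2 1.42.0, limma-voom (limma 3.58.1), a replicate block, a fit of the compared libraries alone, and left-out libraries or lines. The test was also run on simulated counts drawn from edgeR's own estimated spread, with few genes changed in a single group. That simulation had no pairing of lines and no outlying libraries, so it does not cover these features of the data.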

Additional observations from a re-analysis of the deposited data

How the results depend on the processing

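Over 1020 recomputed keratin results, 1001 kept their side of the threshold, 17 lost and 2 gained a call, and 0 changed sign while called. Most of the 1020 were comparisons of regions or of responses, where no keratin was called to begin with. All lost and gained calls were between inhibited and vehicle organoids, so the pooled count says little about those calls. Results that were not called could change sign, as Krt5 did in corpus (log2 -0.25, and -0.53 to 0.19 over the alternatives). Between 6 and 9 of the 10 keratins were called in each region under every alternative, and 0 between regions or in the difference of responses. The lost calls were Krt23 in 7 of 19 alternatives in each region, and Krt4 without line 8026 or without antral vehicle lines 8025 and 8028. With the replicate block on the line, 9 keratins were called in corpus (Krt15 was added) and 8 in antrum; the block changed no other call of the 10 keratins. Total-count scaling moved the median log2 change of all genes to -0.193 in corpus and -0.119 in antrum, and the share of higher genes among all calls to 26.4% in corpus, against 50.1%, and 44.4% in antrum, against 55.0%; upper quartile scaling gave 43.6% in antrum. Counts of all genes called were less stable; the causes were not tested. Leaving out a library or line gave 1811 to 6888 in corpus (4985 with all libraries), 1891 to 5273 in antrum (4794), 0 to 1428 between regions in vehicle (32), 0 to 1895 between regions after inhibition (10) and 0 to 7 for the difference of responses (1). Without antral vehicle lines 8025 and 8028 there were 2740 in antrum and 2 between regions in vehicle. Without both corpus libraries of line 8028 there were 1080, 2386 and 3 in the last 3 comparisons. Between regions in vehicle, RLE gave 17, upper quartile 18, total counts 61, no low-count filter 68, DESeq2 497, limma-voom 21, the replicate block 69 and the compared libraries alone 18. Between regions after inhibition, upper quartile and total counts gave 3 each, no filter 16, DESeq2 149, the replicate block 37 and the compared libraries alone 0. For the difference of responses, DESeq2 gave 9 and the replicate block 7. Krt5, Krt13 and Krt15 rest on 76 to 500 counts per group.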
